A study of Mus musculus with 40 samples.

Results

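The Hox genes of paralog groups 4 and 5 are the 7 genes *Hoxa4*, *Hoxb4*, *Hoxc4*, *Hoxd4*, *Hoxa5*, *Hoxb5* and *Hoxc5*. They were taken by gene symbol from the deposited count files, which hold 26411 genes, 39 of them Hox genes. Expression was measured by RNA sequencing in 24 whole mouse embryos at embryonic day (E) 9.5 and in 16 samples of fetal liver LSK cells at E14.5. LSK cells are lineage marker-negative, Sca-1-positive, c-Kit-positive cells, the sorted fraction that holds the blood stem and early progenitor cells. The study asked how much of the function of KAT6A and KAT6B depends on their lysine acetyltransferase (KAT) activity. The 6 embryo groups, 4 libraries each, were wild type (WT) at both genes, *Kat6a* cfd/cfd (*Kat6a*-/-), *Kat6b* dec/dec (*Kat6b*-/-), *Kat6a* G656E/G656E (*Kat6a* E/E), *Kat6b* G577E/G577E (*Kat6b* E/E) and embryos homozygous for both point mutations, called the double point mutant or double mutant, and each single mutant was WT at the other gene. The LSK groups, also of 4 libraries, were WT, the *Kat6b* point mutant, the *Kat6a* point mutant and the double point mutant, with no null group. The cfd and dec alleles delete part of each gene's exons in every cell, and the point mutations replace a glycine of the acetyl-CoA binding region with glutamic acid. The whole embryo mixes all tissues, so fewer cells of a type and less RNA per cell cannot be told apart.

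Hox genes encode homeodomain transcription factors that give cells along the head-to-tail axis their positional identity, and within each cluster the genes come on in the order in which they lie on the chromosome. Groups 4 and 5 are expressed from the posterior hindbrain and the cervical region backwards, in neural tube, somites and lateral mesoderm, and take part in patterning the cervical and upper thoracic vertebrae. *Hoxb4* is also known for expanding blood stem cells when it is overexpressed, *Hoxb5* marks long-term blood stem cells in the adult mouse, and *Hoxa5* is needed for the development of the respiratory tract.

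The 7 genes lie in all 4 Hox clusters of the mouse (GRCm39, GENCODE vM39). *Hoxa4* (chr6:52166651-52168733) and *Hoxa5* (chr6:52178734-52181567) are neighbours on the minus strand. *Hoxb5* (chr11:96194162-96196947) and *Hoxb4* (chr11:96209093-96212464) lie on the plus strand, as do *Hoxc5* (chr15:102875878-102925861) and *Hoxc4* (chr15:102927366-102945278). *Hoxd4* (chr2:74542273-74559523) is the only member of the HoxD cluster, which has no group 5 gene. Some annotated exons are shared with other counted genes. *Hoxd4* shared 13.1% of its exon bases with *Hoxd3* on the same strand and 11.7% with the antisense *Hoxd3os1*. *Hoxb5* shared 9.48% with the antisense *Hoxb5os*, and *Hoxc5* shared 5.37% with *Hoxc10*. The library kit does not mark strand, so reads from these shared stretches cannot be told apart. These shares are of GENCODE exons, whereas the counts used RefSeq annotation, whose gene lengths differ (*Hoxb5* 1896 against 2786 GENCODE exon bases). How much of the shared stretches was counted was not examined.

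The stretch of 250 bases before the transcription start was available from RefSeq for 4 of the 7 genes, and each matched a single place in GRCm39. The 4 sequences are shown because they were the ones available, and they differ in base composition. Every CpG is in capitals.

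Hoxa5, chr6:52181568-52181817, minus strand: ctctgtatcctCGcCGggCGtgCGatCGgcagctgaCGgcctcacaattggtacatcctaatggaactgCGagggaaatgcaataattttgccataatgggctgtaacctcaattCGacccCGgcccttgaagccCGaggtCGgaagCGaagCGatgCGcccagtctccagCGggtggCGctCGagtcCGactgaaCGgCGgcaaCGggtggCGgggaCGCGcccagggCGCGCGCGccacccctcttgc

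Hoxb4, chr11:96208843-96209092, plus strand: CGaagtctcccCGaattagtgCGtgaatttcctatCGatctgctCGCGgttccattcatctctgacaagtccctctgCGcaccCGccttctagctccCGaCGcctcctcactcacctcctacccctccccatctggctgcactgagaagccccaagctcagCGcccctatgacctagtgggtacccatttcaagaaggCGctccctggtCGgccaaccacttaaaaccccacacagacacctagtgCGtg

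Hoxc4, chr15:102942571-102942820, plus strand: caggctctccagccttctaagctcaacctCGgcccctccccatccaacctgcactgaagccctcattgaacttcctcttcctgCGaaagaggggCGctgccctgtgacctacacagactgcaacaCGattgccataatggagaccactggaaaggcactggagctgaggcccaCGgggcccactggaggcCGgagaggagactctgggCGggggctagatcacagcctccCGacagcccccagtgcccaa

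Hoxd4, chr2:74552072-74552321, plus strand: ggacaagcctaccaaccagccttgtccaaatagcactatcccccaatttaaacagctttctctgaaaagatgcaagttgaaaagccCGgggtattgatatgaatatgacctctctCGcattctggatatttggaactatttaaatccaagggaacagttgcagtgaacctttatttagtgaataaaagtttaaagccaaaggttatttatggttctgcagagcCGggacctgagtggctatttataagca

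The *Hoxa5* stretch held 28 CpG, more than 92.4% of the 32851 promoters of the same length, whose median was 6. *Hoxb4* held 14 and *Hoxc4* held 8, while *Hoxd4* held 3, with a GC content of 40.4% against 63.6% for *Hoxa5*. The *Hoxc4* and *Hoxd4* stretches lie inside the annotated gene spans, before a downstream start. The letters TATAAA, searched on both strands, were present in the *Hoxd4* stretch alone among the 4 and in 12.4% of all promoters. The letters CCAAT were present in the *Hoxa5* and *Hoxd4* stretches and in 33.9% of all promoters.

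Embryo libraries held 8401990 to 23339359 counted read pairs and LSK libraries 12270376 to 59216547. In the LSK set, 4 libraries, *Kat6a* E/E replicate 2 and double point mutant replicates 2, 3 and 4, held a count for 12600 to 13683 genes, and the other 12 for 16082 to 17647. *Xist* was above 100 CPM (counts per 1000000 read pairs, on scaled library sizes) in 3 embryo libraries, *Kat6a*-/- replicate 2 and *Kat6b*-/- replicates 2 and 3, although the study describes the embryos as male, and in 5 LSK libraries. The targeted genes were still counted in their null embryos, because the counts run over the whole gene and the alleles remove some exons. *Kat6a* was at 160 to 171 CPM in *Kat6a*-/- and 169 to 186 CPM in WT embryos, and *Kat6b* at 52.0 to 58.3 CPM in *Kat6b*-/- and 38.2 to 42.6 CPM in WT embryos, so these counts do not check the alleles. *Ly6a*, which encodes the sort marker Sca-1, was at 0.937 to 10.3 CPM in LSK cells, and *Kit* at 351 to 552 CPM.

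All 7 genes were expressed in all 24 embryos. Per length (RPKM, CPM per kilobase of gene length), *Hoxd4* was the most abundant in WT embryos at 20.9 ± 3.37 (SD, n = 4), followed by *Hoxc4* at 16.5 ± 3.13, *Hoxa5* at 13.8 ± 2.15, *Hoxb4* at 11.05 ± 0.709, *Hoxb5* at 9.45 ± 0.442, *Hoxa4* at 8.66 ± 0.954 and *Hoxc5* at 6.66 ± 0.621. Among neighbours in this order, the WT ranges were apart only for *Hoxb4* above *Hoxb5* and *Hoxa4* above *Hoxc5*. *Hoxd4* was highest in 20 of the 24 embryos and *Hoxc5* lowest in 20 of 24. *Hoxd4* also varied most between embryos, from 22.1 to 88.7 CPM (a 4.01-fold range), whereas *Hoxb5* ran from 11.9 to 19.0 CPM (1.59-fold). *Hoxa4* stayed between 10.6 and 16.9 CPM, and its log2 fold changes against WT lay between -0.094 and +0.092 in the 5 mutant genotypes, none of them called. *Hoxc5* lay between 15.8 and 27.1 CPM.

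**Figure D1:**
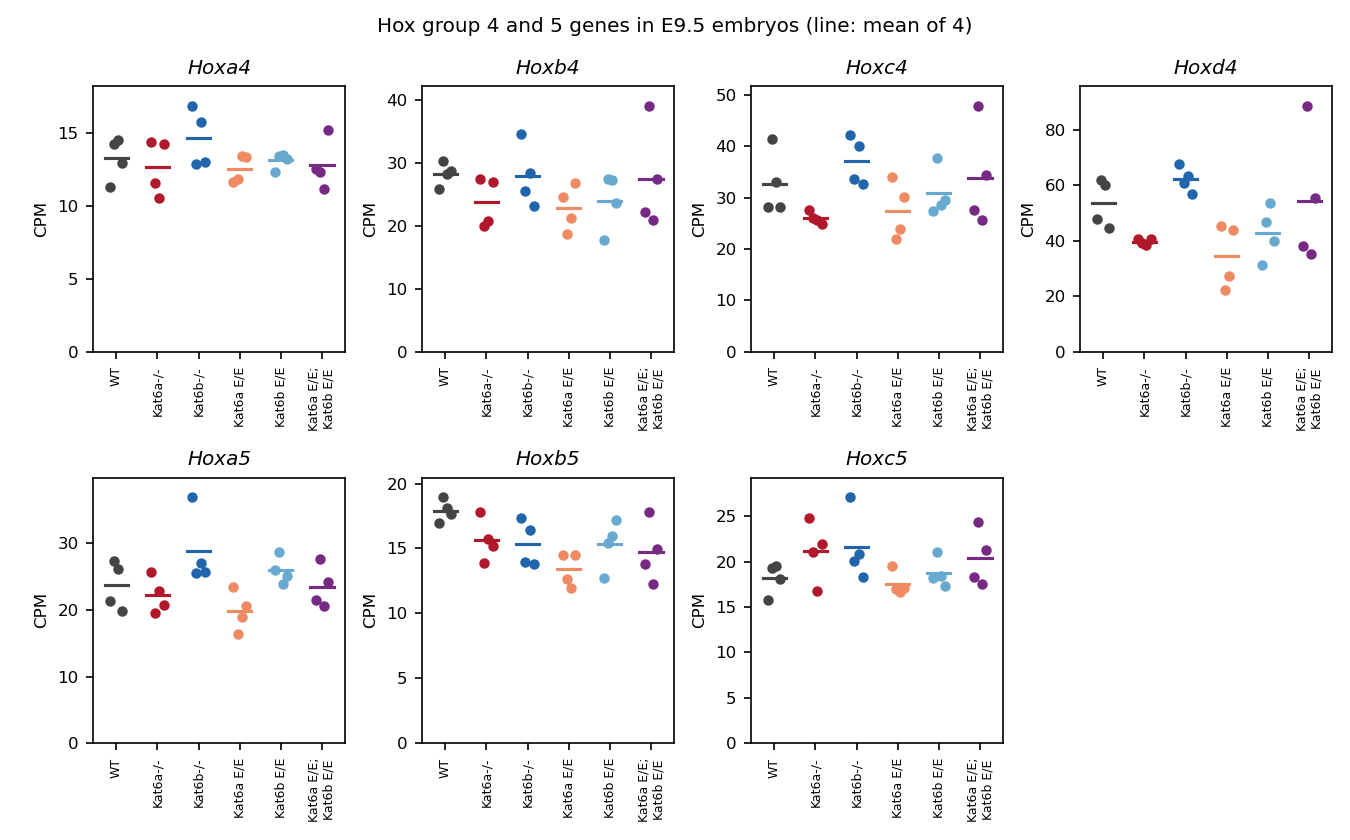
CPM of the 7 genes in each E9.5 embryo library, by genotype, with 1 point per library and a line at the mean of 4 libraries. *Hoxd4* spreads most, from 22.1 CPM in a *Kat6a* E/E embryo to 88.7 CPM in a double point mutant embryo, and *Hoxb5* in *Kat6a* E/E embryos lies wholly below WT.

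Loss of *Kat6a* was compared with WT first. No member was called at a false discovery rate (FDR) under 0.05 in *Kat6a*-/- embryos, where 2.64% of the 14183 genes tested were called, and 1 had an unadjusted p under 0.05 (16.9% of all genes). The fitted log2 fold change was below 0 for 6 of the 7, with a median of -0.18 against -0.0025 over all genes. *Hoxc4* was at 28.2, 41.3, 33.0 and 28.1 CPM in the WT embryos and at 27.6, 26.0, 25.6 and 24.9 CPM in *Kat6a*-/- embryos. *Hoxd4* was at 47.7, 62.0, 60.0 and 44.8 CPM in WT and at 40.6, 39.1, 38.4 and 40.7 CPM in *Kat6a*-/- embryos. Neither pair of ranges overlapped, but 6.49% of all genes lay below WT in this way, and neither gene passed the test, with log2 fold changes of -0.27 (SE 0.1001, FDR=0.160) for *Hoxc4* and -0.24 (SE 0.164, FDR=0.506) for *Hoxd4*. *Hoxc5* was the exception in direction. It was at 15.8, 19.3, 19.5 and 18.1 CPM in WT and at 24.8, 21.1, 16.8 and 21.96 CPM in *Kat6a*-/- embryos, 3 of them above every WT embryo (log2 fold change +0.21, SE 0.102, FDR=0.297). The summed level of 6 neural tube markers was 243 to 347 CPM in *Kat6a*-/- and 385 to 419 CPM in WT embryos (*Sox2* -0.33, FDR=0.0151, *Pax6* -0.28, FDR=0.0430 and *Nkx6-1* -0.80, FDR=0.0282 were called). The summed level of 7 paraxial mesoderm markers was 120 to 149 against 159 to 178 CPM. *Meox1* weighed most in that sum. The log2 fold changes of *Meox1* (-0.27), *Meox2* (-0.15), *Pax1* (-0.84) and *Uncx* (-0.57) were below 0. Those of *Tbx6* (+0.72), *Msgn1* (+1.30) and *Tcf15* (+0.0076) were above 0, and none of the 7 was called. Of the lateral mesoderm markers, *Foxf1* (-0.75, FDR=0.0111) and *Tbx5* (-0.44, FDR=0.0263) were called lower. *Tbx4* (-0.24), *Hand2* (-0.20) and *Prrx1* (-0.070) were also below 0 and were not called. The summed level of the lateral mesoderm markers was 182 to 250 CPM in *Kat6a*-/- and 203 to 264 CPM in WT embryos, and these ranges overlapped. The part of these tissues in the Hox values was not tested.

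In *Kat6b*-/- embryos 0 of the 7 genes were called (0.508% of all genes), 2 had an unadjusted p under 0.05 (12.1% of all genes), and 5 of 7 log2 fold changes were above 0, with a median of +0.17. *Hoxd4* was at 67.8, 60.9, 63.3 and 57.0 CPM, overlapping the upper WT embryos (log2 fold change +0.22, SE 0.157, FDR=0.624). *Hoxb5* had the smallest p of the 7 and the opposite sign, at 17.4, 13.95, 16.4 and 13.8 CPM against 17.0, 19.0, 18.1 and 17.6 CPM in WT embryos (log2 fold change -0.26, SE 0.0927, FDR=0.214). The summed neural tube markers were at 281 to 384 CPM in *Kat6b*-/- embryos, the highest just below the 385 CPM of the lowest WT embryo. None of these markers was called (*Sox2* FDR=0.417, *Pax6* FDR=0.359). The summed paraxial mesoderm markers were at 168 to 233 CPM, overlapping WT. The part of these tissues was not tested.

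Between the null genotypes 2 members were called. *Hoxc4* was lower in *Kat6a*-/- than in *Kat6b*-/- embryos, which held 42.2, 33.7, 39.95 and 32.6 CPM, with a log2 fold change of -0.44 (SE 0.0985, FDR=0.0287). The ranges did not overlap, as for 5.77% of all genes in this direction. *Hoxa5* was also lower, at 25.8, 19.6, 22.8 and 20.8 CPM in *Kat6a*-/- and 36.9, 25.6, 27.0 and 25.8 CPM in *Kat6b*-/- embryos (log2 fold change -0.33, SE 0.0859, FDR=0.0472). These ranges overlapped. The 2 calls stand beside 1.64% of all genes called, 0.677% in the lower direction. *Hoxd4* ranges were apart too, but its log2 fold change of -0.46 (SE 0.163) did not pass the test (FDR=0.156). The calls changed with single libraries. *Hoxc4* stayed under the threshold when *Kat6b*-/- replicate 1 or 4 was left out and not when any of the other 6 libraries was (FDR up to 0.141), and *Hoxa5* lost its call without any 1 of the 8 (FDR=0.0671 to 0.162). With *Xist* above 100 CPM as a covariate neither was called, and 3 of these 8 libraries carried it. The summed paraxial mesoderm markers were at 120 to 149 CPM in *Kat6a*-/- and 168 to 233 CPM in *Kat6b*-/- embryos, with *Uncx*, a somite gene, called (-0.66, FDR=0.0409), and their part was not tested.

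In *Kat6a* E/E embryos all 7 log2 fold changes were below 0, with a median of -0.21 against -0.00067 over all genes, and none was called (0.275% of all genes). *Hoxb5* came nearest. It was at 14.49, 12.7, 11.9 and 14.52 CPM, all below the 17.0 CPM of the lowest WT embryo, as for 2.62% of all genes, and its log2 fold change was -0.37 (SE 0.0904, FDR=0.0774). *Hoxd4* had the largest fitted difference of the 7, -0.54 (SE 0.161, FDR=0.243). Its levels split within the genotype, at 45.2, 22.1, 27.2 and 44.0 CPM, and the low pair, replicates 2 and 3, came from 1 litter. *Hoxb4* was at 24.7, 18.7, 21.2 and 26.9 CPM against 25.9, 30.4, 28.3 and 28.7 CPM in WT embryos, where 1 mutant embryo reached the WT range. *Hoxb4* (-0.24, SE 0.0953, FDR=0.376) and *Hoxa5* (-0.21, SE 0.0862, FDR=0.405) had unadjusted p-values under 0.05 as well, giving 4 of 7 beside 10% of all genes. The summed paraxial mesoderm markers were at 93.9 to 168 CPM in this genotype, overlapping the 159 to 178 CPM of WT embryos, and their part was not tested.

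In *Kat6b* E/E embryos no member was called, nor was any other gene (0% at FDR under 0.05 in the limma fit, and 626 genes, 4.41%, at an unadjusted p under 0.05). Of the 7, 1 had an unadjusted p under 0.05, and their median log2 fold change was -0.045. No gene was called with edgeR or DESeq2 either. *Hoxd4* ran from 31.1 to 53.6 CPM and *Hoxb5* from 12.7 to 17.2 CPM, with log2 fold changes of -0.23 (SE 0.163) and -0.20 (SE 0.0926) and FDR=0.998 for both.

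*Hoxb5* was the only member called in the double point mutant against WT. It was at 13.8, 17.8, 12.3 and 14.95 CPM in the double mutant and at 17.0, 19.0, 18.1 and 17.6 CPM in WT embryos. Replicate 2 of the double mutant lay inside the WT range and the other 3 below it. The fitted log2 fold change was -0.39 (SE 0.0972, FDR=0.0298), or 0.765 of the WT level, in a comparison in which 2.91% of all genes were called and 1.57% were lower. The call was lost when WT replicate 1 (FDR=0.0546), 2 (FDR=0.0988) or 3 (FDR=0.0899) or double mutant replicate 2 (FDR=0.0795) or 3 (FDR=0.0965) was left out, and the log2 fold change stayed between -0.41 and -0.33. It was also lost with no surrogate variables, where 0 genes in all were called. The summed paraxial mesoderm markers were at 123 to 156 CPM in the double mutant, below the 159 to 178 CPM of WT embryos, with *Uncx* called (-1.003, FDR=0.00557). The heart marker *Tnnt2* was higher (+0.36, FDR=0.0415), and the summed heart markers were at 517 to 740 CPM against 389 to 650 CPM. The part of these tissues in the *Hoxb5* value was not tested.

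The other 6 genes were not called in the double mutant, with a median over the 7 of -0.13. Double mutant replicate 2 was the highest of the 24 embryos for *Hoxb4* (39.1 CPM), *Hoxc4* (47.9 CPM) and *Hoxd4* (88.7 CPM). *Hoxb4* was at 22.3, 20.9 and 27.5 CPM and *Hoxc4* at 27.5, 25.7 and 34.3 CPM in the other 3. For *Hoxd4* the other 3 were at 38.3, 35.1 and 55.4 CPM, the first 2 from 1 litter. The mean level of *Hoxd4* was 54.4 ± 24.6 CPM (SD, n = 4) against 53.6 ± 8.63 in WT, while the log2 fold change fitted with surrogate variables was -0.23 (SE 0.171, FDR=0.516) and without them +0.037. *Hoxc4* had the same split between the fit (-0.11, SE 0.102, FDR=0.626) and the value without surrogate variables (+0.093).

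**Figure D2:**
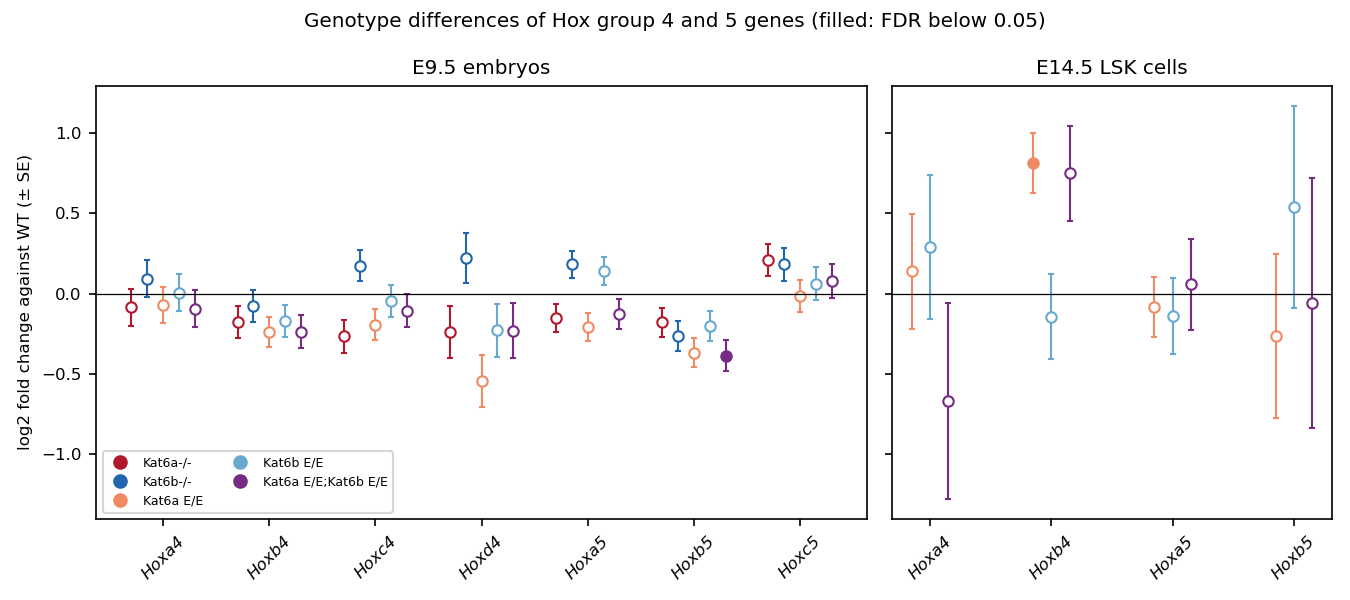
Fitted log2 fold changes against WT, by genotype, of the 7 genes in E9.5 embryos and of the 4 tested genes in LSK cells, with bars for the standard error and filled points for FDR under 0.05. Filled points are *Hoxb5* in double point mutant embryos (-0.39) and *Hoxb4* in *Kat6a* E/E LSK cells (+0.81).

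Point mutants were then set against nulls of the same gene. No member was called between *Kat6a* E/E and *Kat6a*-/- embryos (1.60% of all genes; 1 member and 15.6% of genes at an unadjusted p under 0.05), and the smallest p belonged to *Hoxc5*, lower in the point mutant by a log2 value of -0.22 (SE 0.104, FDR=0.288). The *Kat6b* point mutant against its null gave 0 calls (0.0353% of all genes; 2 members and 8.83% unadjusted), although *Hoxd4* was at 31.1, 46.8, 53.6 and 39.96 CPM in the point mutant, below every *Kat6b*-/- embryo, as for 1.61% of all genes (log2 fold change -0.45, SE 0.165, FDR=0.462). The double point mutant had 0 members called against *Kat6a*-/- (0.00705% of all genes; 0 members and 10.4% unadjusted) and 0 against *Kat6b*-/- (0.212%; 3 members and 10.7% unadjusted), where *Hoxa5* had the smallest FDR at 0.172 (log2 fold change -0.31, SE 0.0863). In each embryo comparison with 0 members called by limma, edgeR and DESeq2 also called 0. These p-values do not show that the genotypes are alike.

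The neighbouring Hox groups gave the members a frame. Of the 5 genes of groups 2 and 3, which act in the hindbrain and anterior somites, *Hoxa2* (log2 fold change -0.50, FDR=0.00952) was lower in *Kat6a*-/- embryos, and the median of the 5 was -0.42. In the double point mutant *Hoxa2* was lower (-0.41, FDR=0.0318). Of groups 6 to 8, 0 of 8 genes were called against WT in any genotype, with 0 to 4 at an unadjusted p under 0.05. Of groups 9 to 13, 15 of 16 were tested and 1 was called, *Hoxc9* in *Kat6b*-/- embryos (+0.53, FDR=0.0461), and the medians ran from -0.44 in *Kat6a* E/E to +0.53 in *Kat6b*-/- embryos. The medians of the 7 members, -0.21 to +0.17 over the 5 genotypes, lay inside that span.

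**Figure D3:**
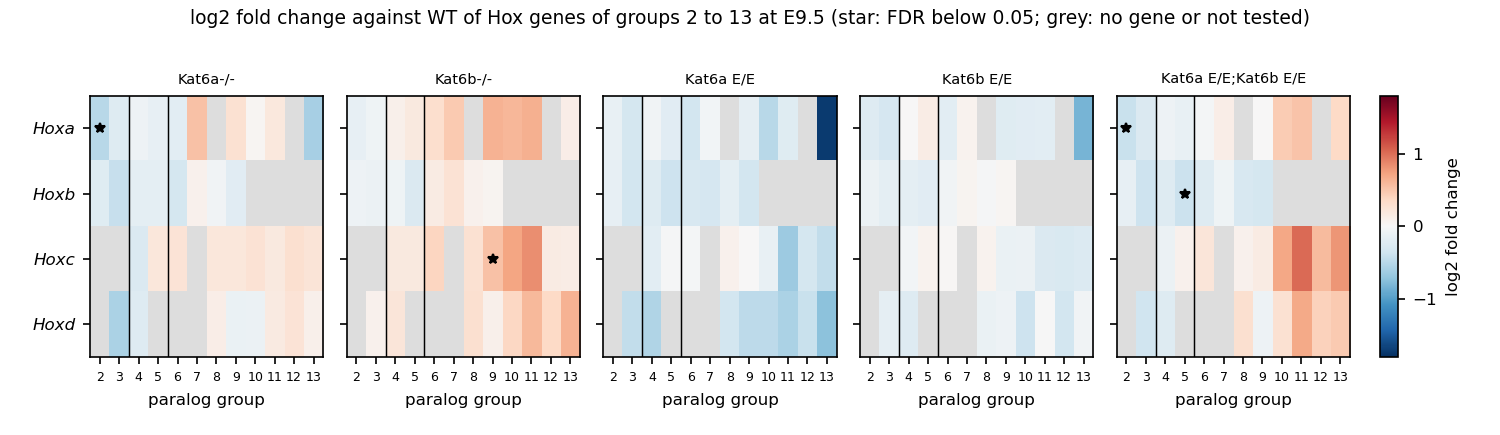
Fitted log2 fold changes of Hox genes of groups 2 to 13 against WT in E9.5 embryos as colour, with clusters as rows, paralog groups as columns, 1 panel per genotype, a star for FDR under 0.05 and grey where there is no gene or none was tested. In *Kat6a*-/- embryos groups 2 and 3 have a median of -0.42 and groups 4 and 5 of -0.18.

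Partners and regulators of these genes were followed from lists. The 9 TALE homeodomain cofactors (Pbx, Meis and Pknox genes), the 13 retinoic acid, Cdx and other upstream genes and the 7 genes of the MLL complex had 0 calls by limma against WT in each of the 5 embryo genotypes. At an unadjusted p under 0.05 there were 0 to 3, 0 to 6 and 0 to 1 of them. Of 13 polycomb genes, *Bmi1*, whose product helps to repress Hox genes, was higher in *Kat6a* E/E (+0.30, FDR=0.0182) and in double point mutant embryos (+0.33, FDR=0.00498).

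Across the 24 embryos the levels of the 7 genes varied together. All 21 pairs had a positive Pearson correlation of log2 CPM, from 0.40 to 0.88 with a median of 0.58, and within genotypes the median was 0.67. The highest pair was *Hoxc4* with *Hoxd4*. The libraries share their whole-embryo tissue mix, so the values are a description. Among all genes tested, the nearest to *Hoxd4* was *Hoxd3* (0.91), with which it shares GENCODE exons. The nearest to *Hoxb4* and to *Hoxb5* was *Zfp503* (0.92 and 0.78). *Hoxc4* was nearest to *Ncam1* (0.89), *Hoxa5* to *Hoxb6* (0.86), *Hoxc5* to *Ccbe1* (0.76) and *Hoxa4* to *Hlx* (0.70). *Hoxa4* had the least similar nearest gene of the 7.

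**Figure D4:**
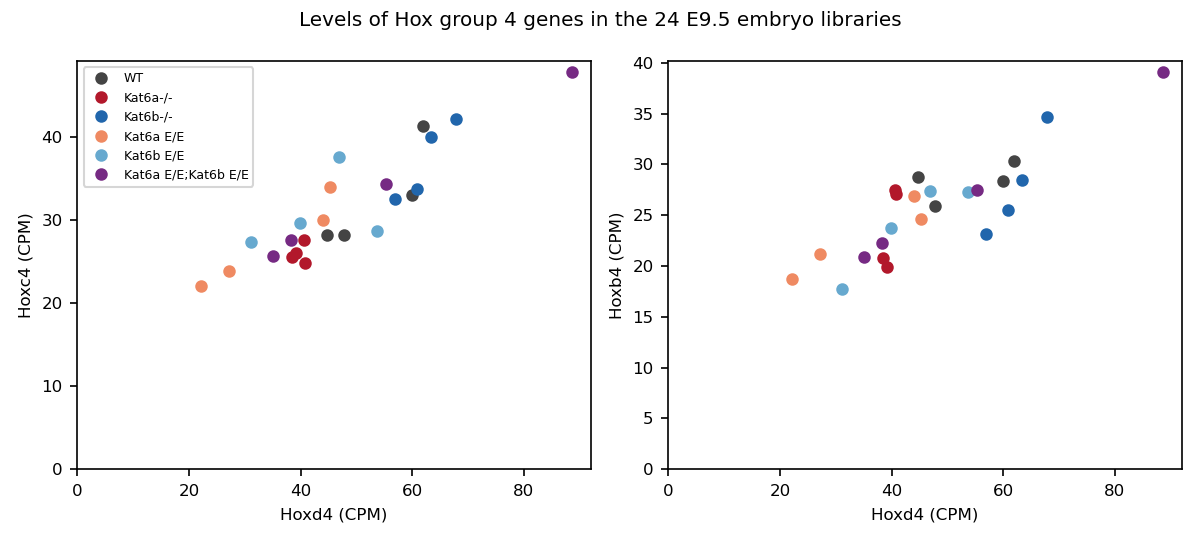
CPM of *Hoxc4* (left) and *Hoxb4* (right) against *Hoxd4*, with 1 point per E9.5 embryo coloured by genotype. The points climb together in both panels (Pearson correlation of log2 CPM 0.88 and 0.84), from the low *Kat6a* E/E embryos to replicate 2 of the double point mutant at 88.7 CPM of *Hoxd4*.

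In fetal liver LSK cells the set was reduced to 4 expressed genes. *Hoxa5* was the most abundant per length in WT cells at 5.49 ± 1.48 RPKM (SD, n = 4), above *Hoxb4* at 1.57 ± 0.380, *Hoxa4* at 0.982 ± 0.164 and *Hoxb5* at 0.206 ± 0.132, and was highest in 15 of 16 libraries. The WT ranges of *Hoxb4* and *Hoxa4* overlapped, and those of the other neighbours among these 4 were apart. *Hoxc4*, *Hoxd4* and *Hoxc5*, 2 of which led the embryo order, did not pass the filter on low counts. *Hoxc4* had 0 counts in the 8 libraries with WT *Kat6a*, which allows up to 0.0141 CPM, and 8 counts in 4 of the 8 libraries with *Kat6a* G656E/G656E (0.0470 CPM over the pooled libraries, exact Poisson 95% interval 0.0203 to 0.0926, counting error only). *Hoxd4* had 9 and 16 counts in the same sets, 13 of the 16 in double mutant replicate 2, a library with few genes detected. *Hoxc5* had 0 and 4 counts, all 4 in *Kat6a* E/E replicate 2, another such library.

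*Hoxb4* was higher in *Kat6a* E/E than in WT LSK cells. It was at 4.57, 4.92, 3.88 and 2.70 CPM in WT and at 6.61, 4.28, 6.42 and 6.66 CPM in *Kat6a* E/E cells. The 4.28 CPM belonged to replicate 2, a library with few genes detected, and made the ranges overlap. The log2 fold change was +0.81 (SE 0.185, FDR=0.0398), or 1.76-fold, beside 1.36% of all genes called and 0.734% higher. The call held in 1 of 8 fits that each left out a library (without WT replicate 1, FDR=0.0495), and the other 7 gave FDR values up to 0.411, with log2 fold changes from 0.54 to 0.90 over the 8. Without the libraries with few genes detected it was +0.66 (FDR=0.0970), and with the replicate number as a block +0.74 (FDR=0.268). With edgeR and DESeq2 it was +0.71 in each and was not called (FDR=0.208 and 0.103). *Hoxa5* was at 11.8, 9.60, 10.3 and 5.86 CPM in WT and at 6.95, 7.59, 9.28 and 8.83 CPM in *Kat6a* E/E cells, inside the WT range. *Hoxa5* (-0.084, SE 0.184, FDR=0.914), *Hoxa4* (+0.14, SE 0.360, FDR=0.935) and *Hoxb5* (-0.26, SE 0.510, FDR=0.899) were not called.

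The double point mutant LSK cells held *Hoxb4* at 5.39, 8.63, 7.67 and 4.42 CPM, with a log2 fold change of +0.75 against WT (SE 0.294) that did not pass the test (FDR=0.649). No gene was called in that comparison (0% at FDR under 0.05 in the limma fit, 896 genes, 6.85%, at an unadjusted p under 0.05, among them 1 member), and edgeR and DESeq2 called no member. In *Kat6b* E/E cells *Hoxb4* was at 3.33, 2.14, 2.62 and 3.87 CPM, no member was called against WT and no gene was (0%; 364 genes, 2.78%, and 0 members unadjusted). Both genotypes with the *Kat6a* mutation lay above *Kat6b* E/E in every library, *Kat6a* E/E by +0.96 (SE 0.249, FDR=0.0556; 5.26% of all genes apart in this direction and 2.07% called) and the double mutant by +0.89 (SE 0.276, FDR=0.0947; 2.23% and 1.48%), and in neither was a member called by limma. *Hoxb4* alone had an unadjusted p under 0.05 in each (17.5% and 20.8% of all genes), and edgeR and DESeq2 called it in both. Double mutant against *Kat6a* E/E cells gave 0 calls (0% of all genes in the limma fit, 197 genes, 1.51%, and 0 members unadjusted). *Hoxa4* was at 0 counts in double mutant replicates 3 and 4, both with few genes detected, which allows up to 0.256 and 0.116 CPM, and at 1.40 and 1.45 CPM in the other 2.

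**Figure D5:**
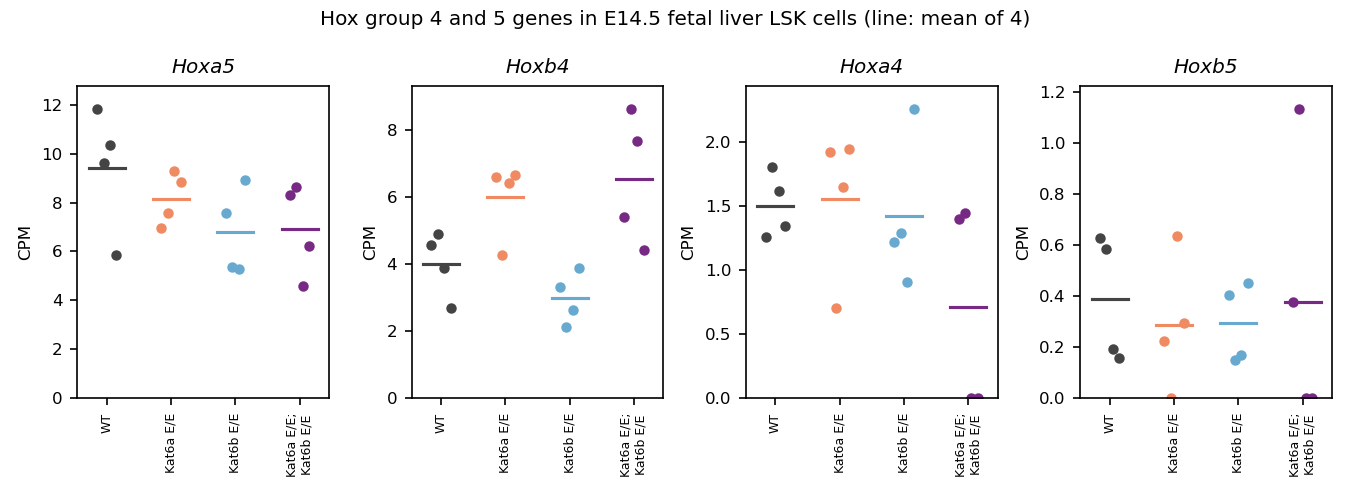
CPM of *Hoxa5*, *Hoxb4*, *Hoxa4* and *Hoxb5* in each LSK library, by genotype, with 1 point per library and a line at the mean of 4 libraries. *Hoxb4* is at 2.14 to 4.92 CPM in the 8 libraries with WT *Kat6a* and at 4.28 to 8.63 CPM in the 8 with *Kat6a* G656E/G656E.

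Cell type markers of the sorted fraction were set beside these values. The 8 stem and progenitor markers all had positive log2 fold changes in *Kat6a* E/E cells (median +0.26, 0 called by limma, 2 at an unadjusted p under 0.05), and their summed level was 1337 to 2173 CPM against 1220 to 2042 CPM in WT. In *Kat6b* E/E cells the same sum was 1083 to 1700 CPM and in the double mutant 1048 to 2007 CPM. Summed erythroid markers were at 1003, 1301, 802 and 3176 CPM in WT and at 640, 5236, 1946 and 435 CPM in *Kat6a* E/E cells, the 5236 CPM in replicate 2, a library with few genes detected, and 2 of the other 3 below every WT library. They ran from 1573 to 4351 CPM in *Kat6b* E/E and from 1051 to 12001 CPM in the double mutant, where the 3 libraries with few genes detected were the highest. Against *Kat6b* E/E cells, the myeloid gene *Itgam* was higher in *Kat6a* E/E (+0.56, FDR=0.0154) and in the double mutant (+0.64, FDR=0.0206). *Ptprc*, the general leukocyte marker CD45, which is counted among the 8 stem and progenitor markers here, was higher in the double mutant (+0.44, FDR=0.0444). All 8 stem and progenitor markers had positive log2 fold changes in these comparisons too (medians +0.34 and +0.41). *Cd3e* and *Cd8a*, which define T cells, were at 0 in all 16 libraries. The part of cell composition in the *Hoxb4* values was not tested. Of the polycomb genes, *Pcgf2* was lower in *Kat6a* E/E cells (-0.68, FDR=0.0300). Of the TALE cofactors, *Meis2* was lower in double mutant than in *Kat6b* E/E cells (-3.23, FDR=0.0453). Its level was 0 to 3.34 CPM over the 16 libraries.

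The log2 fold change of *Hoxb4* in *Kat6a* E/E had opposite signs in the tissues, -0.24 in embryos, where it was not called, and +0.81 in LSK cells. Tested in a joint fit, the difference was 1.13 on the log2 scale (SE 0.316) and did not pass (FDR=0.156; 0 members and 0.139% of 15123 genes called, 2 members and 8.91% of genes unadjusted). All 7 members entered the joint fit, *Hoxc4*, *Hoxd4* and *Hoxc5* through their embryo counts alone, and *Hoxc4*, the other of the 2, had 0 counts in WT LSK cells. The *Hoxb4* difference was called without the LSK libraries with few genes detected (0.94, FDR=0.0104) and with DESeq2 (1.03, FDR=0.0175). Age, tissue and sorting differ together between these sets and cannot be told apart. For *Kat6b* E/E (0% of all genes called; 0 members and 3.92% unadjusted) and for the double mutant (0.00661%; 1 member and 7.99% unadjusted), 0 members passed the limma test of a difference between the tissues.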

How the data were processed

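RNA from 24 whole E9.5 embryos and 16 E14.5 fetal liver LSK samples was made into unstranded libraries with the TruSeq RNA kit. The authors aligned the read pairs to mm39 with Rsubread and counted them per gene with featureCounts on RefSeq annotation. The deposited values are raw counts per gene in 1 file per library, with a gene length from which RPKM was computed here. Groups came from the genotype and tissue labels. The main fit followed the study's own model: Y-linked and non-coding genes removed, low counts filtered with filterByExpr, libraries scaled by TMM, with 4 surrogate variables, litter as a random block and limma's voomLmFit with robust empirical Bayes (R 4.3.3, edgeR 4.0.16, limma 3.58.1), separately for embryos (14183 genes) and LSK cells (13071 genes), and jointly (15123 genes) for tissue differences. All adjusted p-values (FDR) are Benjamini-Hochberg values over all genes tested, with a threshold of 0.05, two-sided. CPM and RPKM levels are on TMM-scaled library sizes, and counts pooled over LSK libraries are scaled by their summed pairs. Per the study, the 4 libraries of a group are separate embryos or fetuses. Some share a litter. WT LSK replicates 1, 2 and 3 came from 1 litter and double mutant LSK replicates 2, 3 and 4 from another.

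The 7 genes and the gene lists were chosen with earlier results of these data known. The text names the 7 members, the targeted genes, list genes under the threshold where that list is given, the genes correlating best with each member and genes sharing exons. Hox group 1 is not reported here. On simulated counts the fit recovered 88% of 100 genes changed by 0.5 and 99% of 100 changed by 1 (log2) for *Kat6a*-/- against WT embryos. For *Kat6a* E/E against WT LSK cells it recovered 74% and 91%. The changed genes averaged over 100 counts per library, and the counts were drawn without a litter effect. In LSK cells *Hoxa4* and *Hoxb5* held 497 and 122 counts over all 16 libraries, so these rates do not apply to them. The rates are averages over the genes drawn, and no rate was computed for any member. Alternatives were other numbers of surrogate variables (0, 2, 6), no litter block, edgeR's quasi-likelihood test, DESeq2 1.42.0, TMM replaced by DESeq2 size factors, low counts kept, every gene type kept, the replicate number as a block, and leaving out each library. Counts give an exact Poisson interval or a floor of 3 counts, which cover counting error only.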

Additional observations from a re-analysis of the deposited data

Results flagged for a closer look

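In 3 groups of 4 libraries, 1 library lay far from the other 3 by Dixon's ratio at the 95% level. *Hoxa5* was at 36.9 CPM in *Kat6b*-/- embryo replicate 1 and at 25.6 to 27.0 CPM in the other 3. *Hoxc5* was at 19.5 CPM in *Kat6a* E/E embryo replicate 1 and at 16.7 to 17.1 CPM in the others. *Hoxb4* was at 4.28 CPM in *Kat6a* E/E LSK replicate 2, which had few genes detected, and at 6.42 to 6.66 CPM in the others. Chance alone flags about 1 in 20 groups, and 42 embryo and 16 LSK groups were examined.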

How the results depend on the processing

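Of 2513 values of the members under 13 settings and with each library left out, 2441 kept their side of the threshold, 22 passed it newly and 50 lost it. The sign changed in 158 of them, all in members called in neither setting, and in 0 called values. The covariates for genes detected and *Xist*, and leaving out the libraries with few genes detected, were chosen after seeing the data; the cause of the changes was not tested. The 1 call in double mutant against WT embryos became 0 with no surrogate variables, 2 surrogate variables or the genes-detected covariate. The 2 calls in *Kat6a*-/- against *Kat6b*-/- embryos became 1 with DESeq2 size factors and 0 with no or 2 surrogate variables, the replicate block, or either covariate. With 6 surrogate variables, *Kat6a* E/E against WT embryos gave 2 (*Hoxd4*, *Hoxb5*), and *Kat6a* E/E against *Kat6a*-/- and the double mutant against *Kat6b*-/- each gave 1 (*Hoxd4*). In LSK cells, the 1 call in *Kat6a* E/E against WT became 0 with no, 2 or 6 surrogate variables, no litter block, edgeR, DESeq2, no low-count filter, the replicate block, the genes-detected covariate, or without the libraries with few genes. *Hoxb4* gave 1 call in *Kat6a* E/E against *Kat6b* E/E with no litter block, edgeR, DESeq2 or either covariate, and 1 in the double mutant against *Kat6b* E/E with edgeR or DESeq2. For the tissue difference, *Kat6a* E/E gave 1 with DESeq2 or without the libraries with few genes (*Hoxb4*). With the genes-detected covariate *Kat6a* E/E and the double mutant each gave 1, *Hoxc4*, which had 0 counts in WT LSK libraries and passed the joint filter through the embryos alone, so that this call has no LSK level behind it.

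With 1 library left out at a time, member calls ran from 0 to 1 in double mutant against WT embryos, *Kat6a*-/- against *Kat6b*-/- embryos, *Kat6a* E/E against WT LSK cells, double mutant against *Kat6a* E/E LSK cells and the tissue difference of the double mutant. They ran from 0 to 2 in double mutant against WT and against *Kat6b* E/E LSK cells, and stayed at 0 in the others. Without double mutant LSK replicate 1, *Hoxa4* (-4.15, FDR=0.000998) and *Hoxb4* (1.26, FDR=0.00254) were called against WT. That left 3 double mutant libraries, all with few genes and all from 1 litter. WT LSK replicates 1, 2 and 3 came from 1 other litter. Genotype, litter and few genes detected cannot be told apart in that fit. Over all genes the calls in double mutant against WT embryos went from 413 to 0 with no surrogate variables and to 811 with 6, and those in *Kat6a* E/E against WT LSK cells from 178 to 3 and 267, and to 1 without *Kat6a* E/E replicate 1.

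Same-numbered libraries did not deviate together (correlations -0.23 to 0.31 in embryos, with 17 of 60 over 0.1, and -0.43 to 0.35 in LSK cells, 8 of 24), so the numbers do not pair them. The replicate block kept the 1 call of *Hoxb5* in double mutant embryos and took the others to 0.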

Other observations

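Across the 16 LSK libraries, the genes with levels most like the members were *Paqr5* for *Hoxa4* (Pearson correlation of log2 CPM 0.97), *Ptgir* for *Hoxb4* (0.92), *Rbpms* for *Hoxa5* (0.95) and *Elk1* for *Hoxb5* (0.92), a description over libraries of which 4 held few genes. The 6 pairs among these 4 members ranged from -0.13 to 0.74, against 0.40 to 0.88 for the 21 pairs in embryos. Within genotypes the LSK pairs ranged from 0.35 to 0.83 (median 0.62) and the embryo pairs from 0.31 to 0.87 (median 0.67), all positive. Among embryos, the summed level of the 7 genes was lowest in *Kat6a* E/E replicate 2 (120.7 CPM) and highest in double mutant replicate 2 (257.9 CPM).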
